A study of Mus musculus with 4 samples.

Results

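The response of the wild-type (WT) mouse lung to ovalbumin (OVA) was read from a pair of RNA-seq libraries, 1 from normal and 1 from OVA-induced C57BL/6 WT mice. Its members were all genes that reached 10 counts in either library, which were 19023 of the 41079 genes in the table. The study's other 2 libraries, normal and OVA-induced Rab44-KO, came from mice whose Rab44 gene, encoding a large Rab GTPase, was edited by CRISPR/Cas9 on the same background. They entered only the scaling of the counts and the values given side by side. OVA-induced mice had been injected intraperitoneally with 100 μg OVA in alum on days 0, 7 and 14, were challenged through the nose with 100 μg OVA in 50 μL for 4 days, from day 17 to day 20, and were dissected on day 21. The normal mice are labelled as untreated, although the accompanying protocol also mentions a PBS challenge. The mice are described as female littermates aged 8 to 14 weeks. The number of mice pooled in a library was not given in the sources used here. OVA with alum models allergic sensitisation to 1 protein antigen, and lungs were taken at 1 time point.

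In this model, repeated contact with an antigen raises T helper 2 cells and IgE, and the cytokines IL-4, IL-5 and IL-13 then act on airway epithelium, macrophages and eosinophils. IL-4 and IL-13 signal through the transcription factor STAT6. Airway epithelial cells respond by becoming mucus-filled goblet cells, macrophages take on an alternatively activated state, and chemokines called eotaxins draw eosinophils into the tissue.

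The libraries held 19164196 counts in normal WT and 19910236 in OVA-induced WT lungs, with 24316 and 24571 genes detected. Counts were scaled for library size by TMM and are given as CPM, and 3 counts, the floor used for a gene at 0, equal 0.156 and 0.155 CPM. With 1 library per condition there is no replicate check on any value, no p-value was computed, and each difference is one between libraries. Ranges in parentheses after a log2 fold change (log2FC) come from the exact 95% Clopper-Pearson method for the ratio of both counts, and they reflect counting error alone. The lung markers Scgb1a1 and Sftpc, which encode a club cell secretory protein and surfactant protein C, had the highest and second highest levels per transcript length (TPM) of all genes in both WT libraries. The label of sex did not match the reads. Ddx3y, a gene of the Y chromosome, had 1942 counts in normal WT and 1536 in OVA-induced WT, and 1772 and 2216 in the normal and OVA-induced Rab44-KO libraries. Xist, the RNA of the inactive X chromosome, had 41 counts in normal WT and 538 in OVA-induced WT, against 40 and 72 in the Rab44-KO libraries. The X and Y reads in all 4 libraries go against an all-female origin, and the part of sex in the results was not tested.

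Of the 19023 genes, 1710 (8.99%) were over 2-fold higher in the OVA-induced WT library and 989 (5.20%) were over 2-fold lower. With TPM, which divides by length and by the summed length-scaled expression of the library, these numbers were 1273 and 1102, so that 53.6% of the genes beyond 2-fold were higher in place of 63.4%. Among the 13575 genes that reached 100 counts in either library, 786 (5.79%) were over 2-fold higher and 223 (1.64%) over 2-fold lower. With TPM there were 591 and 352 at that depth. An interval entirely past 2-fold was found for 814 higher genes (4.28%) and 200 lower genes (1.05%). It lay entirely above 0 on the log2 scale for 5552 genes (29.2%) and below 0 for 5217 (27.4%). For scale, normal Rab44-KO against normal WT, which shares the normal WT library, put 893 of 18718 genes (4.77%) beyond 2-fold in either direction, and 55 of 13166 (0.418%) at 100 counts or more. The corresponding shares of the OVA comparison in WT were 14.2% and 7.43%. The median log2FC over all members was 0.00 and the 5th and 95th percentiles were -1.01 and 1.54. At the edge of the rule, the 276 genes whose higher count was exactly 10 had a median log2FC of -0.01, and the 299 genes with 9 counts, just outside it, 0.16.

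**Figure D1:**
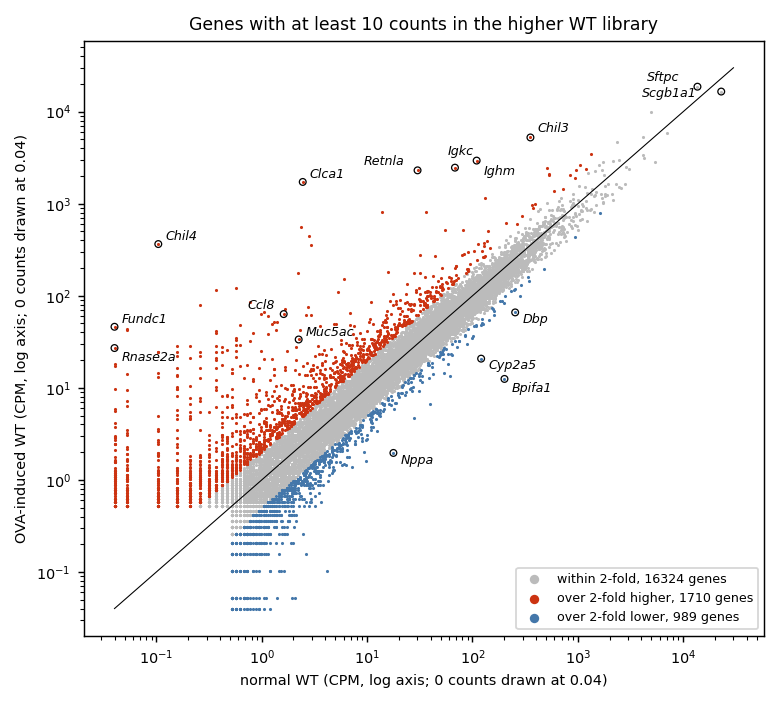
CPM of each gene that reached 10 counts in either WT library, normal WT on the horizontal and OVA-induced WT on the vertical axis, both logarithmic, with 0 counts drawn at the axis edge. Each point is a gene, the line marks equal CPM, red and blue mark the 1710 genes over 2-fold higher and the 989 over 2-fold lower, and the circled genes are described in the text.

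Genes of mucus cells and macrophages were among those with large increases. Clca1 encodes a secreted goblet cell protein that regulates chloride channels and mucus. It had 47 counts in normal WT and 33407 in OVA-induced WT, or 2.45 and 1725 CPM, a log2FC of 9.46 (9.05 to 9.91). Retnla, which encodes the resistin-like protein FIZZ1, had 578 and 44659 counts, a log2FC of 6.26 (6.14 to 6.38). Per transcript length it moved from rank 1071 to rank 5 among all genes, at 8976 TPM. Chil3, which encodes the chitinase-like protein Ym1, had 6811 and 101647 counts, a log2FC of 3.89 (3.85 to 3.92), and moved from TPM rank 205 to rank 7. Its neighbour Chil4, encoding Ym2, had 2 and 7063 counts, 3501-fold more with a counting interval of 969 to 28915. Ccl8, a macrophage chemokine, had 31 and 1226 counts, a log2FC of 5.29 (4.78 to 5.86). The gel-forming mucin Muc5ac had 43 and 649 counts, a log2FC of 3.90 (3.46 to 4.38). Each of these 6 genes was over 2-fold higher with its whole interval. They were chosen as markers of the response or for their gain in CPM, so this describes them and tests nothing. Chil4 passed the count minimum through the OVA-induced library alone. None of the 6 shared a 150-base transcript window with another gene.

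In the Rab44-KO libraries the same genes had other values. From normal to OVA-induced, Clca1 had 108 and 77 counts, Retnla 771 and 944, Chil4 1 and 19, Ccl8 43 and 44, and Muc5ac 27 and 41. Chil3 had 5639 and 17869 counts, a log2FC of 1.57 (1.53 to 1.61). The OVA-induced WT library was the highest of the 4 for each of these 6 genes. In the Rab44-KO libraries, 1963 of 19073 genes (10.3%) were beyond 2-fold in either direction. Whether the response differed by genotype was not tested. Rab44 itself had 251 counts in normal WT and 810 in OVA-induced WT, a log2FC of 1.68 (1.47 to 1.89), and 1 and 0 counts in the Rab44-KO libraries.

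**Figure D2:**
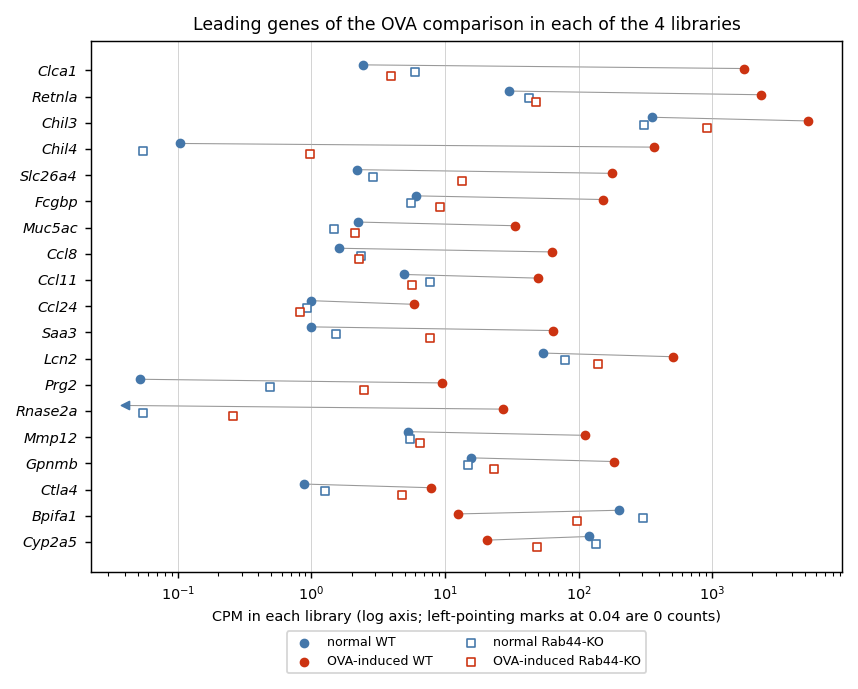
CPM of selected leading genes in each of the 4 libraries on a logarithmic axis, with filled circles for WT, open squares for Rab44-KO, blue for normal and red for OVA-induced lungs. The grey lines join the WT libraries, and the red circles lie far to the right of the other marks for most genes and to the left of them for Bpifa1 and Cyp2a5.

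Short stretches around STAT-type letters are shown because STAT6 is the factor through which IL-4 and IL-13 act. The pattern TTCNNNNGAA, with 4 bases of any kind between its arms, is the one STAT6 prefers, and TTCNNNGAA, with 3, is shared by other STAT proteins. Both read the same on either strand and they cannot begin at the same base. They were searched in the 250 bases before each RefSeq gene start on GRCm38.p6. The capitals mark the pattern, each sequence is written on its gene's strand, and the position counts from the gene start to the first capital. Of the 6 genes above, Retnla, Chil3 and Chil4 held a pattern, Ccl8 held neither, and Clca1 and Muc5ac were not matched. Retnlg is shown as the neighbour of Retnla, and Ccl17, Lcn2 and Il33 as examples chosen after their values were seen, from 25 distinct matches in 21 genes.

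Retnla, chr16:48842452-48842485, plus strand, position -145: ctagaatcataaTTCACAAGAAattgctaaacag
Retnlg, chr16:48872524-48872557, plus strand, position -72: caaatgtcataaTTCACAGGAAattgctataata
Chil3, chr3:106167716-106167748, minus strand, position -172: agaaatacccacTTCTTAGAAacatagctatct
Chil4, chr3:106219659-106219691, minus strand, position -200: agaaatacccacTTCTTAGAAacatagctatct
Ccl17, chr8:94810287-94810320, plus strand, position -154: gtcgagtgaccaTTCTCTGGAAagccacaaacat
Lcn2, chr2:32387874-32387907, minus strand, position -156: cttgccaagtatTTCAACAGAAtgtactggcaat
Il33, chr19:29925065-29925098, plus strand, position -36: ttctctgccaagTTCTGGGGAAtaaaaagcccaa

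The neighbouring genes Chil3 and Chil4 had the same 33 bases here, 33 of 33 identical, and Retnla and its neighbour Retnlg shared 25 of 34. Among the 511 genes over 2-fold higher with at least 100 counts that matched a RefSeq promoter, 43 held TTCNNNNGAA (8.41%) and 52 held TTCNNNGAA (10.2%). The shares over all 10406 matched genes with at least 100 counts were 5.63% and 7.25%, and over all 27025 RefSeq promoters 6.76% and 8.13%. Of 155 matched genes over 2-fold lower, 5 (3.23%) and 11 (7.10%) held them. A match describes letters only. Either pattern stood in 89 of the 511 higher genes (17.4%), in 16 of the 155 lower genes (10.3%) and in 1271 of the 10406 (12.2%). Of the 182 list members and other named genes over 2-fold higher at that depth, 119 matched a promoter, and 21 of them (17.6%) held either pattern.

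Mucus genes were higher as a group. Of 17 listed genes of goblet cells, 15 passed the count minimum, 11 were over 2-fold higher and 0 lower, and their median log2FC was 2.17, against 8.99% of all members over 2-fold higher and a median of 0.00. A gene that passed the minimum through the OVA-induced library alone had to be higher there, so where a list holds such genes its count is also given over the genes with at least 10 counts in normal WT, or in both libraries where a gene passed through normal WT alone and had to be lower. For the mucus genes that was 8 of 12, with a median of 1.58. Slc26a4, the anion exchanger pendrin, had 42 counts in normal WT and 3426 in OVA-induced WT, a log2FC of 6.33 (5.90 to 6.81). Fcgbp, a protein that links mucin networks, had 117 and 2978 (log2FC 4.66), and Agr2, which helps mucins fold, 39 and 177 (2.17). The goblet cell transcription factors Spdef and Foxa3 had 37 and 119 counts and 2 and 32 counts. The lectin Itln1 went from 0 to 34 counts, at least 11.2-fold higher. Muc5b, the gel-forming mucin that the normal airway already makes, was higher by less, with 1072 and 2753 counts (log2FC 1.35), and the surface mucins Muc1 and Muc4 by under 2-fold (0.74 and 0.79). Sval1 had 0 counts in both libraries and Tff1 had 0 and 4. Clca1 stood alone in its family: of 8 Clca genes, only Clca3a1 also passed the minimum, with 63 and 46 counts. In whole lung RNA, a larger number of cells of a type and more RNA per cell cannot be told apart, and this holds for every cell type below.

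Genes of alternatively activated macrophages were also higher. All 16 listed genes passed the count minimum. Of these, 11 were over 2-fold higher, against 8.99% of all members, and 0 lower, with a median log2FC of 1.37. Of the 15 with at least 10 counts in normal WT, 10 were higher (median 1.36). Retnla, Chil3, Chil4 and Ccl8 also belong here. Mrc1, the mannose receptor, was at the 2-fold line with 1657 and 3413 counts (1.03), and the IL-4 receptor chain Il4ra was below it (0.46). Chia1, the acidic mammalian chitinase that airway cells secrete, had 1547 and 9990 counts (2.68). The remaining members of the chitinase family that passed the minimum, Chid1, Ctbs and Chil5, lay between log2FC -0.63 and 0.22.

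Transcripts of lysosomes and tissue remodelling in phagocytes were higher as well. Of 12, 9 were over 2-fold higher, against 8.99% of all members, and 0 lower, with a median of 2.07. Mmp12, the macrophage elastase, had 101 and 2153 counts, a log2FC of 4.40 (4.11 to 4.70). Gpnmb, a glycoprotein of lipid-laden macrophages, had 303 and 3546 (3.54), the lipid receptor Trem2 41 and 390 (3.23), and cathepsin K, Ctsk, 614 and 5349 (3.11). Spp1, osteopontin, had 610 and 3432 counts (2.48). Cathepsin D, Ctsd, had 10124 and 40287 (1.98), although 28.1% of its windows also occur in other transcripts. By contrast, Ctsl (0.16) and Lamp1 (0.23) were near the level of the normal library, and the sign of Ctsl turned with TPM to -0.01. Against 8.99% and 5.20% of all members, 6 of 12 alveolar macrophage genes were over 2-fold higher and 1 lower (median 1.06). The chemokine Ccl6 led them with 2518 and 22238 counts (3.13), followed by the scavenger receptor Marco with 145 and 912 (2.64), while Fabp1 was lower with 87 and 31 (-1.50).

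Complement genes were higher in part. The 3 chains of C1q, C1qa, C1qb and C1qc, which macrophages make, had log2FC of 1.95, 2.13 and 1.87, and C3, the central component, had 10283 and 39924 counts (1.94). In all, 7 of 13 complement genes were over 2-fold higher and 1 was lower (median 1.37), against 8.99% and 5.20% of all members. The lower gene was Cfd, adipsin, a product of fat cells, with 592 and 177 counts (-1.75). Of the 4 adipose genes with at least 10 counts in both libraries, 2 were over 2-fold lower, against 5.20% of all members, and 0 higher, with Adipoq at 92 and 25 counts. Lep, with 36 and 4, passed the minimum through normal WT alone. The part of fat tissue in the Cfd value was not tested.

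**Figure D3:**
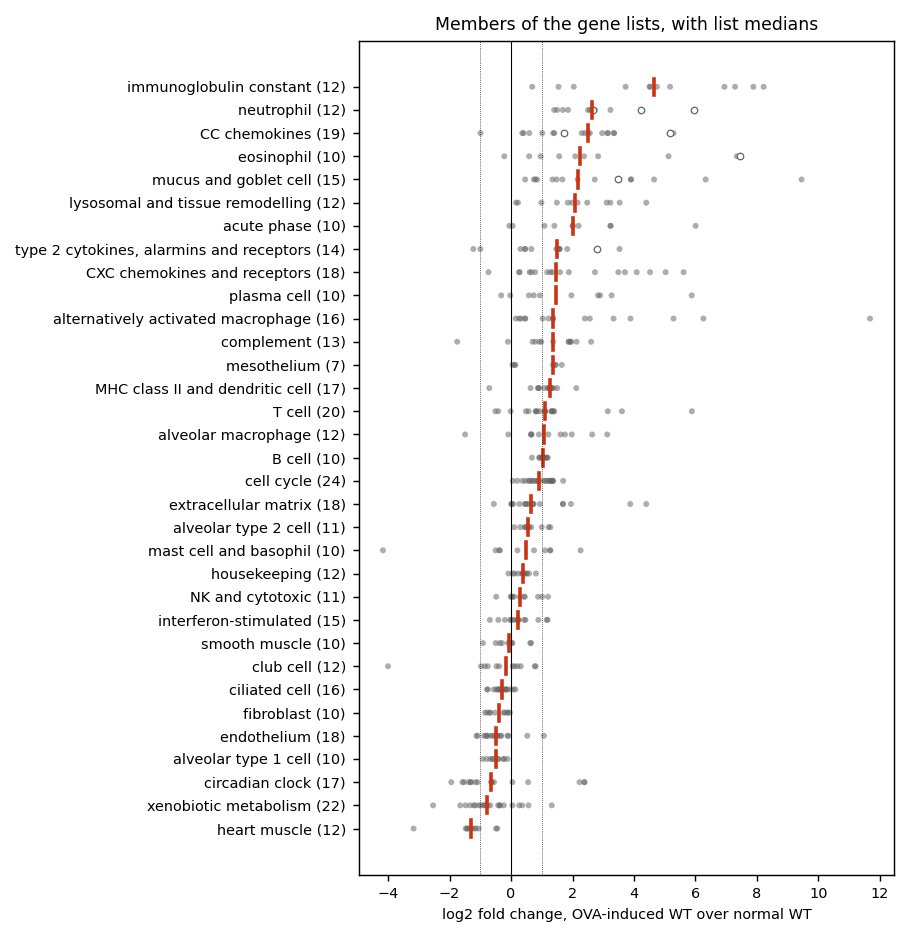
log2FC of OVA-induced WT over normal WT for each listed gene that reached 10 counts in either library, 1 row per list with the number of such genes in parentheses. Dots are genes, open dots are genes at 0 counts in normal WT set at the floor of 3 counts, and dotted lines mark 2-fold. Red bars are list medians of the log2FC with the prior count, not with the floor. The medians of most immune lists and of the mucus list lie to the right. Those of NK and cytotoxic (0.28) and interferon-stimulated genes (0.22) lie below that of housekeeping genes (0.39). The clock, xenobiotic and heart muscle medians lie furthest to the left.

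Most CC chemokines were higher. All 19 listed CC chemokines passed the minimum, and 15 were over 2-fold higher, against 8.99% of all members, and 0 lower. Their median log2FC was 2.51, or 2.40 with genes at 0 counts set at their bound. Of the 15 with at least 10 counts in both libraries, 12 were higher (median 2.40). The eotaxins, ligands of the eosinophil receptor Ccr3, were Ccl11 with 94 and 965 counts (3.35, 3.04 to 3.67) and Ccl24 with 19 and 114 (2.56, 1.86 to 3.36). Ccl17 and Ccl22, which attract T helper 2 cells through Ccr4, had 55 and 294 (2.40) and 146 and 381 counts (1.37). Their receptor Ccr4 had 9 and 55 counts (2.58). The monocyte chemokines Ccl2 and Ccl7 had 11 and 100 counts and 9 and 94. Ccl20, which recruits cells bearing Ccr6, went from 0 to 109 counts, at least 36.0-fold higher. The homeostatic chemokines Ccl19 (0.36) and Ccl21a (0.41) differed by under 2-fold, although 32.45% and 33.7% of their windows also occur in other transcripts. Of 10 CC receptors, 8 were over 2-fold higher and 0 lower (median 1.33), or 6 of the 8 with at least 10 counts in normal WT, with Ccr3 at 114 and 490 counts (2.09) and Ccr1 at 130 and 561 (2.10).

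In the CXC family, 12 of 18 genes over the minimum were over 2-fold higher, against 8.99% of all members, and 0 lower (median 1.47). Of the 13 with at least 10 counts in normal WT, 7 were higher (median 1.17). The neutrophil attractant Cxcl5 had 4 and 204 counts (5.62, 4.28 to 7.55), and the neutrophil chemokine receptors Cxcr1 and Cxcr2 had 51 and 1187 (4.52) and 74 and 496 (2.73). Cxcl9 and Cxcl10, ligands induced by interferon gamma, had 6 and 105 counts (4.09) and 8 and 107 (3.71). Cxcl14, a chemokine of resting epithelium and stroma, was lower at 3978 and 2408 counts (-0.74). Of 15 other interferon-stimulated genes, 2 were over 2-fold higher, Oas1a (1.19) and Mx1 (1.16), which is near the 8.99% of all members. With TPM that count fell to 1. The list's median was 0.22, with Ifit2 at -0.69. Oas1a shares 32.4% of its windows with Oas1g.

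The type 2 cytokines themselves were rare in whole lung RNA. Il13 had 1 count in normal WT and 13 in OVA-induced WT, 12.9-fold more with a log2 interval of 0.95 to 9.10. Il4 had 6 and 17 (1.47, 0.08 to 3.12), and Il5 had 16 and 8, whose interval of -2.44 to 0.30 includes no change. Il9 and Il25 had 0 counts in both libraries. A transcript at these counts cannot be followed at this depth beyond such wide intervals. The alarmins, which epithelial and stromal cells release, lay in opposite directions. Il33 had 1302 and 3834 counts, a log2FC of 1.55 (1.45 to 1.64), and Tslp had 128 and 55, a log2FC of -1.23 (-1.71 to -0.76). The IL-33 receptor Il1rl1 had 122 and 352 counts (1.52) and the IL-13 decoy receptor Il13ra2 0 and 21, at least 6.94-fold higher. Among the 10 genes of the list with at least 10 counts in both libraries, 5 were over 2-fold higher, against 8.99% of all members, and 1, Tslp, was lower (median 1.09). Among other cytokines, Il1b had 115 and 471 counts (2.02) and its antagonist Il1rn 153 and 560 (1.86). Il17a and Il22 had 0 counts in both libraries, and Ifng had 5 and 20.

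Of 12 eosinophil genes, 7 had at least 10 counts in normal WT. Of these 7, 4 were over 2-fold higher, against 8.99% of all members, and 0 lower (median 1.57). The granule genes Prg2, Rnase2a and Ear6 passed the minimum through the OVA-induced library alone and are given as values. Prg2, the major basic protein, had 1 and 185 counts, 183-fold more with an interval of 32.5 to 7283. Rnase2a, of the eosinophil-associated ribonuclease family, went from 0 to 524 counts, at least 173-fold higher, and Ear6 of the same family had 3 and 110. Epx, eosinophil peroxidase, and Prg3, both eosinophil granule proteins, had 0 and 1 and 0 and 3 counts. Ear1 (-0.22) and Ear2 (0.96) did not pass 2-fold. Ear1 shares 5.67% of its windows with Ear-ps9, and Ear2 shares 6.32% of its own with Ear10. Siglecf, a surface lectin of eosinophils that alveolar macrophages also carry, had 268 and 407 counts (0.59). Il5ra, the IL-5 receptor chain, had 26 and 78 (1.57), and Alox15, which makes lipid mediators in eosinophils and in alternatively activated macrophages, had 131 and 942 (2.83).

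Of the 10 mast cell and basophil genes over the minimum, 7 had at least 10 counts in both libraries, of which 2 were over 2-fold higher, against 8.99% of all members, and 0 lower (median 0.21). The mast cell carboxypeptidase Cpa3 had 59 and 128 counts (1.10), the basophil protease Mcpt8 3 and 15, and the connective tissue mast cell protease Mcpt4 20 and 1, each of the proteases passing through 1 library alone. The high-affinity IgE receptor chain Fcer1a had 12 and 14. Of 17 genes of lipid mediators, 16 passed the minimum, 7 were over 2-fold higher, against 8.99% of all members, and 0 lower (median 0.55). The higher count was 5 of the 14 with at least 10 counts in normal WT (median 0.39). The higher ones were the leukotriene genes Alox5ap (1.13) and Ltc4s (1.02), the prostaglandin D synthase Hpgds (1.34), the lipoxygenases Alox15 (2.83) and Alox12e (5 and 67 counts), the leukotriene B4 receptor Ltb4r1 (1.82) and the prostaglandin D receptor Ptgdr, which went from 0 to 31 counts. An interval below 0 was found for 4, near the 27.4% of all members, namely Alox12 (-0.50), Ptgs2 (-0.40), the prostacyclin synthase Ptgis (-0.52) and the leukotriene receptor Cysltr2 (-0.99).

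Neutrophil genes were higher. Of 14, 9 had at least 10 counts in normal WT. These 9 were over 2-fold higher, against 8.99% of all members, with a median of 2.51. Ngp, Camp and Mpo passed the minimum through the OVA-induced library alone. S100a8 and S100a9, the subunits of calprotectin, had 336 and 2012 counts (2.57) and 538 and 3461 (2.67). Of the WT libraries only the OVA-induced one held transcripts of some granule proteins that neutrophils make during maturation in bone marrow: Ngp had 0 and 187 counts, at least 61.8-fold higher, Camp 0 and 57, at least 18.8-fold, and Mpo 0 and 19, at least 6.28-fold. Lcn2, lipocalin 2, which neutrophils and stressed epithelium make, had 1046 and 9933 counts (3.23, 3.14 to 3.33). Of the 12 neutrophil genes over the minimum in WT, 10 were over 2-fold higher with OVA in the Rab44-KO libraries (median 2.33). Of all 19023 members, 1083 were over 2-fold higher there. The 12 include Ngp, Camp and Mpo, so the count is not set against the 9 in WT. S100a9 had 558 and 4872 counts and Ngp 7 and 323 in the Rab44-KO libraries. Acute-phase genes were higher too, 8 of 10 over 2-fold, against 8.99% of all members, and 7 of the 9 with at least 10 counts in normal WT. They were led by Saa3 with 19 and 1241 counts (6.01, 5.37 to 6.75) and the protease inhibitor Serpina3g with 132 and 1259 (3.24). Haptoglobin, Hp, had 13155 and 13763 (0.05), and its sign turned with TPM to -0.12.

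T cell genes were higher by a smaller factor, 11 of 20 over 2-fold, against 8.99% of all members, and 0 lower (median 1.10). Of the 19 with at least 10 counts in normal WT, 10 were higher. Cd3e had 108 and 288 counts (1.40), Cd4 129 and 323 (1.31) and Cd8a 114 and 247 (1.10). Genes that activated T cells express had unequal values. Ctla4 had 17 and 153 counts (3.15, 2.43 to 3.97), Tnfrsf9 25 and 309 (3.61, 3.03 to 4.27) and Pdcd1 1 and 67, while Tnfrsf4 (1.32), Cd28 (1.11), Icos (0.81), Cd40lg (0.57) and Il2ra (0.48) lay under the log2FC of Cd3e. Of the transcription factors that define T helper classes, Gata3, of T helper 2 cells, had 307 and 232 (-0.42), and Tbx21, of T helper 1 cells, 50 and 50, while Foxp3 of regulatory T cells had 120 and 212 (0.81). Natural killer and cytotoxic genes had a median of 0.28, with 2 of 11 over 2-fold higher, against 8.99% of all members, and 1 with TPM. Most antigen presentation genes were higher. The class II chains H2-Aa, H2-Ab1 and H2-Eb1 and the invariant chain Cd74 had log2FC of 1.27, 1.38, 1.30 and 1.28, and Cd74 had 18251 and 44815 counts. In the class II and dendritic cell list, 12 of 17 were over 2-fold higher, against 8.99% of all members, and 0 lower (median 1.26). Mgl2, a lectin of type 2 dendritic cells and macrophages, led with 358 and 1572 (2.12), while Clec9a, of cross-presenting dendritic cells, had 986 and 608 (-0.71).

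Antibody genes were higher. Genes of immunoglobulins with Jchain took 0.0362% of the normal WT counts and 1.07% of the OVA-induced WT counts. Of 13 constant genes, 12 passed the minimum, and 11 were over 2-fold higher, against 8.99% of all members, and 0 lower (median log2FC 4.64). Of the 10 with at least 10 counts in normal WT, 9 were higher (median 4.63). Ighm, of IgM, had 2103 and 56984 counts (4.75, 4.68 to 4.81), and Igkc, of the kappa light chain, had 1309 and 47753 (5.18, 5.10 to 5.26), moving from TPM rank 226 to rank 4. The IgG genes had the largest folds. Ighg1 had 45 and 10764 counts (7.89, 7.47 to 8.35), Ighg2b 54 and 8550 (7.29), Ighg2c 56 and 6981 (6.95) and Ighg3 5 and 1544 (8.22, 7.03 to 9.88). Igha, of mucosal IgA, had 689 and 15811 (4.51), and Ighe, of IgE, the class that arms mast cells, 4 and 96 (4.53, 3.17 to 6.48). Ighd, of IgD on naive B cells, had 525 and 853 (0.69) and was the only constant gene over the minimum that stayed within 2-fold.

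**Figure D4:**
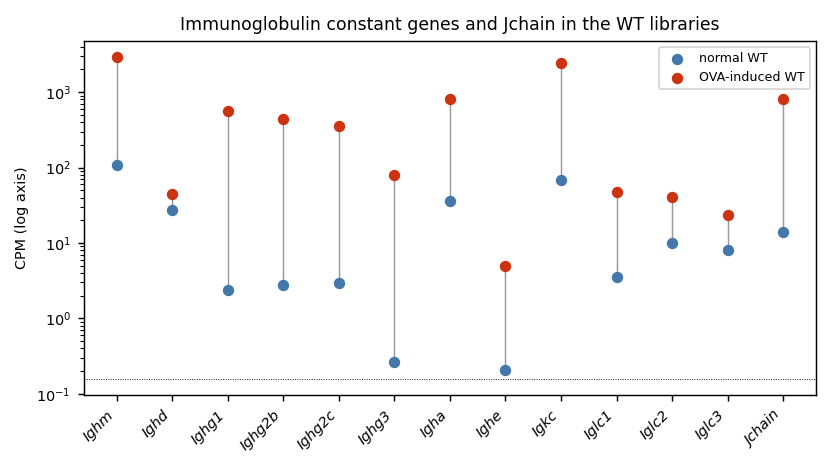
CPM of the immunoglobulin constant genes with at least 10 counts and of Jchain in normal WT (blue) and OVA-induced WT (red) on a logarithmic axis, with the floor of 3 counts as a dotted line. Ighg3 has the longest span, from 5 to 1544 counts, and Ighd the shortest, from 525 to 853.

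The plasma cell list had 5 of 10 genes over 2-fold higher, against 8.99% of all members, and 0 lower (median 1.45). The higher count was 4 of the 9 with at least 10 counts in normal WT (median 0.94). Of the higher genes, Jchain, which joins IgM and IgA polymers, had 266 and 15799 counts (5.88, 5.70 to 6.06), Mzb1, a chaperone of antibody assembly, 98 and 956 (3.27, with 46.7% of its windows shared), Derl3 25 and 180 (2.83), the survival receptor Tnfrsf17 6 and 46 (2.90) and the transcription factor Irf4 153 and 603 (1.97). The other 5 stayed within 2-fold, from Prdm1 (-0.32) and Sdc1 (-0.03), which epithelium and other cells also express, to Tnfrsf13b (0.94). B cell identity genes lay close to 2-fold, between 0.68 for Cr2 and 1.20 for Cd79a. Of 10, 6 were over 2-fold higher, against 8.99% of all members, and the median was 1.04. With TPM that count was 1. Ms4a1, encoding CD20, had 507 and 1036 counts (1.02).

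Variable genes were higher in sum. The 183 Ighv genes had 426 summed counts in normal WT and 15432 in OVA-induced WT, and the 162 Igkv genes 882 and 29708. The number of Ighv genes with any count went from 67 to 102 and the number with at least 10 counts from 15 to 71, and for Igkv genes these numbers went from 82 to 105 and from 33 to 78. Most of the 71 and 78 thus passed the count minimum through the OVA-induced library alone, so how many of them were higher is not given. The 5 leading genes of a library took much the same part of its Ighv counts, 28.2% in normal WT and 28.6% in OVA-induced WT, and of its Igkv counts, 28.3% and 30.6%. The most abundant in the OVA-induced library were Ighv1-26 (27 and 1013 counts), Ighv1-9 (12 and 928) and Ighv14-2 (1 and 851) among heavy chains, and Igkv4-57-1 (11 and 2380), Igkv2-137 (7 and 2249) and Igkv3-4 (15 and 1645) among kappa chains. Igkv2-137 shares 43.5% of its windows with Gm42889. Ighv1-59 went from 0 to 351 counts, at least 116-fold higher. Variable genes are alike in sequence and how the authors counted reads with several matches was not given, so single genes are uncertain. The 3 Iglv genes of the lambda chain had 129 and 1617 summed counts.

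Cell cycle genes were higher to a modest degree, 11 of 24 over 2-fold, against 8.99% of all members, and 0 lower (median 0.92). Top2a, which untangles replicated DNA, had 276 and 667 counts (1.26, 1.06 to 1.47), Mki67 280 and 604 (1.10) and the spindle protein Tpx2 74 and 242 (1.70), while the replication licensing genes Mcm2 (0.20) and Mcm4 (0.06) were close to the normal library. Matrix genes were mixed, with 5 of 18 over 2-fold higher, against 8.99% of all members, and 0 lower (median 0.63). Eln, elastin, had 2155 and 7000 counts (1.69, 1.62 to 1.76), Col6a5 16 and 239 (3.88), the inhibitor Timp1 96 and 374 (1.95) and Col3a1 6802 and 13146 (0.94). Postn, periostin, was lower with 6957 and 4754 counts (-0.56). Smooth muscle genes stayed within 2-fold, 1 of them not with TPM, with Acta2 at 0.63, Myh11 at -0.10 and a median of -0.07. Fibroblast genes had a median of -0.39 and mesothelial genes of 1.36, the latter led by Msln with 500 and 1582 counts (1.65).

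The resident epithelium divided by cell type. Alveolar type 2 genes were higher by a small factor, with a median of 0.56 over 11 genes. Among these, Etv5 (0.11) turned with TPM to -0.070. Of the 11, 2 were over 2-fold higher, against 8.99% of all members. These were Sftpd, surfactant protein D, with 11435 and 26905 counts (1.22) and Cxcl15, lungkine, with 16218 and 39638 (1.28). Sftpc had 262219 and 361981 counts, a log2FC of 0.45. All 10 alveolar type 1 genes were lower within 2-fold, with a median of -0.50, from Pdpn (-0.12) to Lmo7 (-0.92, or -1.10 with TPM). Club cell genes went both ways. Scgb1a1, the largest loss in CPM, had 440878 and 320451 counts (-0.47), Cyp2f2 41338 and 21168 (-0.98) and Scgb3a2 12526 and 6977 (-0.86), while Bpifb1 had 1272 and 2230 (0.80) and Reg3g, an antibacterial lectin, 528 and 908 (0.77). Bpifa1, a secreted defence protein of the upper airway, had the largest decrease of all genes with at least 100 counts, from 3863 to 242, a log2FC of -4.01 (-4.20 to -3.82). Ciliated cell genes had a median of -0.31, and all 16 stayed within 2-fold. Their interval lay below 0 for 10 and above it for 0, against 27.4% and 29.2% of all members. Endothelial genes were mostly lower, 16 of 18 with an interval below 0, against 27.4% of all members, and a median of -0.50. The receptor Ednrb had 3008 and 1389 counts (-1.13) and the ligand Apln 1308 and 619 (-1.09), whereas Adm, adrenomedullin, had 76 and 161 (1.07) and Cldn5, a tight junction protein, 6191 and 9004 (0.53). Epas1, an oxygen-sensing transcription factor abundant in endothelium, had 53789 and 31710 (-0.77).

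Enzymes that handle foreign compounds were lower in part. Of 22, 7 were over 2-fold lower, against 5.20% of all members, and 1 was higher (median -0.78). Cyp2a5, a cytochrome P450 of airway epithelium, had 2319 and 402 counts (-2.54, -2.70 to -2.39), and 4.57% of its windows match other genes. The carboxylesterase Ces1g had 172 and 55 (-1.66), the flavin monooxygenase Fmo2 31325 and 15260 (-1.05), and Cyp2e1 384 and 154 (-1.33). Cyp26b1, which degrades retinoic acid, was the higher one, with 300 and 758 (1.32). Targets of the antioxidant factor NRF2 gave a median of 0.07, which turned to -0.11 with TPM, with Slc7a11 at 43 and 275 counts (2.66) and Nqo1 at 179 and 95 (-0.93). The sulfotransferase Sult1d1, with 533 and 91 counts (-2.56), was also among the 10 largest decreases.

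Genes of the circadian clock moved in 2 opposed sets. Of 17 over the minimum, 8 were lower by over 2-fold and 3 were higher (median -0.64), against 5.20% and 8.99% of all members. The lower set held the clock output factors Dbp, with 4881 and 1278 counts (-1.95, -2.04 to -1.86), Hlf (-1.58) and Tef (-1.31), the repressors Per2 (-1.53), Per3 (-1.38) and Ciart (-1.31), and the nuclear receptors Nr1d1 (-1.09) and Nr1d2 (-1.16). The higher set held Bmal1, the core activator that Nr1d1 represses, with 59 and 312 counts (2.39, 1.98 to 2.82), its partner Npas2 with 23 and 122 (2.39) and Nfil3 with 56 and 265 (2.23). In these genes the Rab44-KO libraries had the same signs, with Dbp at 4802 and 74 counts (-6.11) and Bmal1 at 62 and 891 (3.75). The hour at which lungs were taken was not given in the sources used here, so the hour and the treatment cannot be told apart for these genes. Of 11 immediate-early genes, which respond within minutes to handling and which are set against the shares of 5.20% lower and 8.99% higher over all members, 2 were over 2-fold lower, Fos with 1360 and 533 counts (-1.36) and Egr1 with 1740 and 848 (-1.05), and 1 was higher, Atf3 with 139 and 381 (1.44). Their median was -0.33, with 7 intervals below 0 and 2 above it, against 27.4% and 29.2% of all members. Heat shock genes had a median of 0.41.

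Heart muscle genes were lower in every case. All 12 had an interval below 0, against 27.4% of all members, 10 were over 2-fold lower, against 5.20%, and 0 higher, and the median was -1.30. Myh6, the atrial and adult mouse myosin heavy chain, had 5367 and 1942 counts (-1.48, -1.55 to -1.40), Nppa, the atrial natriuretic peptide, 341 and 38 (-3.17, -3.70 to -2.69) and Tnnt2, cardiac troponin T, 2438 and 965 (-1.35). Summed, the list had 833 CPM in normal WT and 373 in OVA-induced WT. Other muscle genes were among the large decreases: myoglobin, Mb, had 1182 and 263 counts (-2.18), Car3, the carbonic anhydrase of muscle and fat, 767 and 128 (-2.59), and Hrc, of the sarcoplasmic reticulum, 181 and 39 (-2.22). Mouse lung holds heart muscle cells around its pulmonary veins, and the amount of this tissue and of adjoining heart in each sample was not tested. In the Rab44-KO libraries Myh6 had 6059 and 6774 counts, and the median of the list was -0.06.

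**Figure D5:**
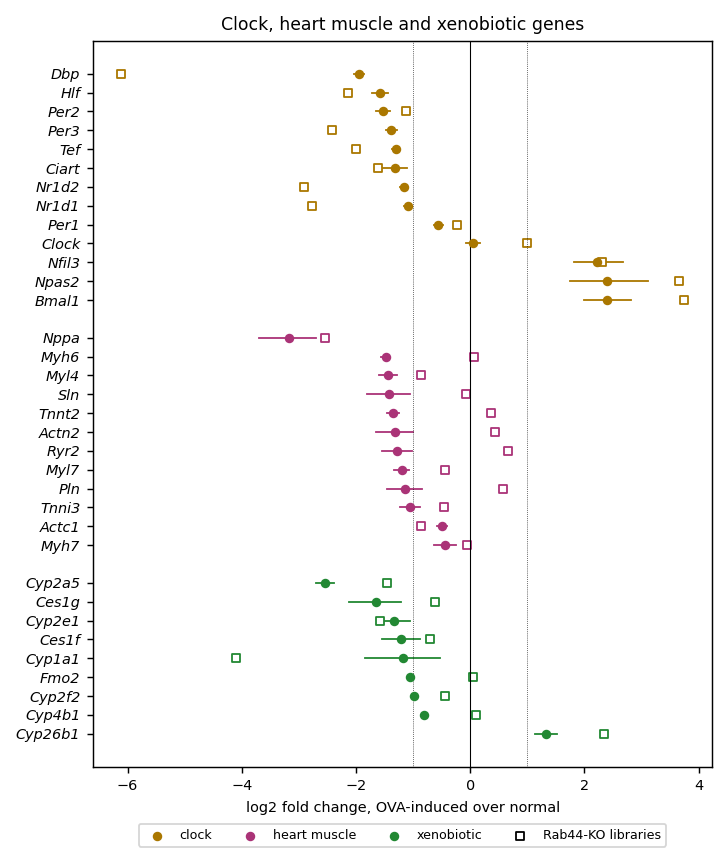
log2FC of OVA-induced over normal lungs for clock, heart muscle and xenobiotic genes, with filled points and 95% counting intervals for WT and open squares for the Rab44-KO libraries; dotted lines mark 2-fold. The clock genes lie on the same side of 0 in both genotypes, and the heart muscle genes lie below 0 in WT and on both sides of it in Rab44-KO.

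Markers of other tissues that a dissection could bring in were also counted. Of 6 skeletal muscle genes 2 passed the minimum, Ckm, a creatine kinase that heart muscle also expresses, with 219 and 73 counts (-1.60), and Acta1 with 1 and 20 (4.15), and Myh2 and Myh4 had 0 in both libraries. Of the thymus list, 1 of 5 genes passed the minimum (Cd1d1, 353 and 444 counts), and the thymocyte genes Rag1 and Rag2 had 1 count or none in either library. Of the tracheal cartilage list 1 of 6 passed, and Acan had 0 in both libraries. Erythroid genes had a median of -0.05 and platelet genes of -0.19. Housekeeping genes had a median of 0.39, between -0.08 for Tbp and 0.81 for Gapdh, which had only 47 and 83 counts. Transcript length moved with the comparison, since the shortest 10% of the genes had a median log2FC of 0.22 and the longest 10% one of -0.26, and its part in single genes was not tested beyond removing that trend.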

How the data were processed

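Lung RNA was analysed from normal WT and OVA-induced WT mice, 1 library each, and the normal and OVA-induced Rab44-KO libraries entered the scaling. The authors made directional libraries, used HISAT2 for alignment to GRCm38 and featureCounts for gene-level counting, and deposited the raw counts. Their versions, the strand setting and the handling of reads with several matches are not given in the sources used here. The authors also deposited TPM, which over 15583 genes equal the counts divided by 1 length per gene and scaled per library, so for these genes TPM, before its pseudocount, shifts the log2 ratio of the raw counts by -0.187. Positions in the deposited table start where GRCm38 RefSeq places the gene for only 2.12% of 39405 matched genes, and none were used. Promoters are from RefSeq on GRCm38.p6 and transcript windows of 150 bases from GENCODE M21.

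Counts were scaled by TMM in edgeR 4.0.16 (R 4.3.3) over the 4 libraries. The log2FC used a prior count of 0.125, made proportional to library size. Intervals of a ratio came from the exact 95% Clopper-Pearson method (scipy 1.17.1) and reflect counting error alone. For a bound, genes at 0 were given 3 counts. No test of the condition was run, since 1 library per condition leaves no residual degrees of freedom. The steps were run on simulated counts that held counting error alone, so that run says nothing of variation between mice. Genes named were the markers of the response, the 10 largest log2FC per direction among genes with at least 100 counts and the 15 largest among coding ones, the 5 largest gains and losses in CPM, members of 50 gene lists, and leading immunoglobulin variable genes. The members and lists were chosen with earlier results of these data known, and lists overlap. Alternatives were DESeq2 1.42.0 size factors, total counts, TMM on the WT libraries only or without immunoglobulin genes, a prior count of 2, TPM with a pseudocount of 0.1, thinning to the smaller library, removal of a running median along length over 501 genes, count minimums of 1 and 50, and a log2FC beyond 2. The values of a few single list members are not reported here.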

Additional observations from a re-analysis of the deposited data

Results flagged for a closer look

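For 6 of the genes chosen by their size of change or CPM, the libraries of the genotypes moved in opposite directions from normal to OVA-induced lungs. The log2FC of Clca1 was 9.46 in WT and -0.58 in Rab44-KO. It was 0.45 and -0.49 for Sftpc, 0.998 and -0.20 for Lyz2, a lysozyme of macrophages and alveolar type 2 cells, and -0.77 and 0.28 for Epas1. For Txlnb, a muscle taxilin, it was -1.93 and 0.48, and for COX1, a mitochondrial oxidase subunit, -0.27 and 0.03. With 1 library per condition the difference was not tested for any of them.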

How the results depend on the processing

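Of 19023 genes, 1710 were over 2-fold higher and 989 lower. A count minimum of 1 gave 4219 higher and 3325 lower genes, a minimum of 50 gave 989 and 361, and a log2FC beyond 2 gave 647 and 217. With TPM, 352 genes with at least 100 counts were over 2-fold lower in place of 223, and 62.7% of those beyond 2-fold were higher in place of 77.9%; TPM lowered the median log2FC of all members to -0.16. Over 493 genes and 3944 recomputed values, 56 had the other sign, 39 of them in 23 genes whose counting interval included 0 and 17 in genes whose interval did not. The latter with TPM were Tgm2 (-0.024), Ctsl (-0.012), Col1a2 (-0.11), Hp (-0.12), Aldh1a7 (-0.054), Etv5 (-0.070), Gpm6a (-0.055), Hspb1 (-0.034), Sdha (-0.11) and Ywhaz (-0.057), and with the length trend removed Pdgfra (0.0025), Hp (-0.091), Aldh1a7 (-0.013), Dnah9 (0.076), Vwf (0.085), Hspb1 (-0.041) and Sdha (-0.011). The club cell genes over 2-fold lower went from 1 to 3 of 12 with either setting. The mast cell and basophil genes over 2-fold higher went from 4 to 2 of 10 with TPM. Of these 10, 2 had passed the minimum through the OVA-induced library alone and had to be higher there. No paired analysis was possible because each condition has 1 library and the labels give no replicate numbers. Leaving out a replicate was not possible for the same reason. Below 100 counts intervals often spanned more than 2-fold, and the number of mice per library, sex and hour of collection were not tested.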

Other observations

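Fundc1, a mitochondrial receptor for the removal of damaged mitochondria, had 0 counts in both normal libraries, 892 in the OVA-induced library of WT and 844 in that of Rab44-KO, at least 295-fold higher in WT. Its rank as the largest log2FC of all genes with at least 100 counts rested on the prior count added to 0, since a prior count of 2 gave Fundc1 a log2FC of 8.78, Chil4 one of 10.77 and Clca1 one of 9.40. Awat1, an enzyme of wax synthesis, had 0 and 331 counts in WT and 0 and 3 in Rab44-KO, and Mrgprg, a receptor of the Mas-related family, 0 and 115 in WT and 0 and 0 in Rab44-KO. Eif2s3y, a gene of the Y chromosome, had 397 counts in normal WT and 1730 in OVA-induced WT, a log2FC of 2.11, against 1259 and 1541 in the Rab44-KO libraries, while Kdm5d and Uty, of the same chromosome, had log2FC of 0.07 and -0.53 in WT. Gapdh had 34 to 83 counts in each of the 4 libraries, and 18.1% of its windows occur in other transcripts. Cdkn1a, a brake on the cell cycle that p53 and glucocorticoids raise, had 437 and 1609 counts in WT (log2FC 1.87), and Sgk1, a kinase that glucocorticoids raise, 1832 and 4270 (1.21), while the glucocorticoid targets Fkbp5 (0.37) and Tsc22d3 (0.44) differed by under 2-fold.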
